A study of Saccharomyces cerevisiae with 12 samples.

Results

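The ATG genes of the budding yeast Saccharomyces cerevisiae encode the machinery of autophagy, and their mRNA levels were measured here in hel2 deletion and wild type cells with and without the alkylating agent methyl methanesulfonate (MMS). Members were the genes whose name in the deposited count table is ATG followed by a number, which gave 26 of the 7109 gene identifiers. Of these, 17 carry a number from 1 to 18 and are called the core machinery, and 9 carry a number of 19 or higher and are called the late-numbered genes. RefSeq gives an ATG symbol to 11 further identifiers, which the table lists under another name or under none. They are described beside the members and counted apart from them, so that 37 ATG genes appear in all. The 4 groups were MMS-treated hel2 deletion cells, untreated hel2 deletion cells, MMS-treated wild type cells and untreated wild type cells, with 3 libraries labelled as biological replicates in each. All were of the BY4741 background and had been grown in the rich medium YPD, and treatment lasted 90 min at 30 °C at a dose not given in the sources used here. Hel2 is a ubiquitin ligase that marks collided ribosomes, and MMS alkylates both DNA and RNA.

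In autophagy, a double membrane grows around part of the cytoplasm and closes to an autophagosome, whose inner body is then broken down in the vacuole. The Atg1 kinase complex starts the process, vesicles with the membrane protein Atg9 and the lipid transfer protein Atg2 supply membrane, a phosphatidylinositol 3-kinase marks it, and 2 ubiquitin-like proteins, Atg8 and Atg12, are conjugated to expand it. Receptors that bind both a cargo and Atg8 make the process selective. Yeast in rich medium runs the selective cytoplasm-to-vacuole targeting (Cvt) route, which brings aminopeptidase I to the vacuole, while starvation turns on bulk autophagy and raises the mRNA of ATG8 and several other members.

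Library totals ran from 36472686 to 53638964 counts. The deletion was visible in its own gene: HEL2 had 29 to 39 counts in treated and 19 to 27 in untreated deletion libraries, against 928 to 2185 in treated and 1869 to 2431 in untreated wild type libraries. The deletion libraries also held 19374 to 28105 counts of LEU2, against 2 to 28 in the wild type libraries, so the strains differ in that gene too. Among treated wild type libraries, replicate 1 stood apart. Its genes deviated from the mean of the other replicates in its group with an SD of 0.43 on the log2 scale. This SD was the highest of the 12 libraries, and the members' median deviation was -0.19. Every comparison below that uses the treated wild type rests partly on this library.

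As a share of all counts, the 26 members took 0.177%, 0.183% and 0.187% in treated deletion libraries and 0.0580%, 0.0550% and 0.0540% in untreated deletion libraries. The wild type libraries gave 0.104%, 0.118% and 0.125% with MMS and 0.0485%, 0.0477% and 0.0487% without it. No 2 groups overlapped, and the treated deletion libraries were the highest. These are shares of each library, so more mRNA in every cell and more cells that express a gene cannot be told apart. They do not include the scaling factors used for the gene levels below. Those factors were 1.29 to 1.33 in treated and 0.85 to 0.96 in untreated deletion libraries. In wild type libraries they were 0.89 to 1.11 with MMS and 0.82 to 0.85 without it.

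**Figure D1:**
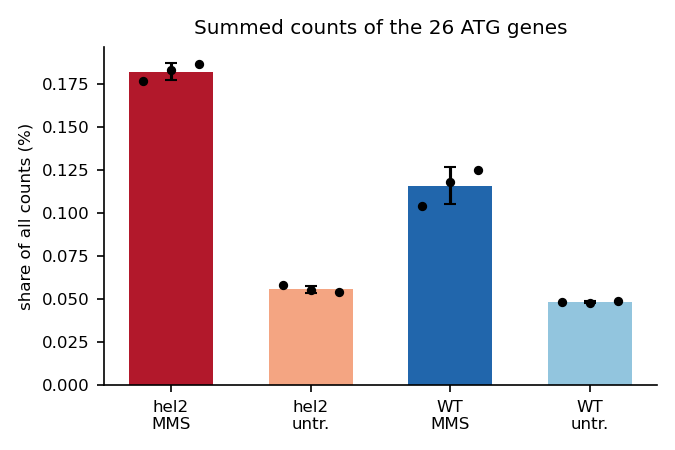
Share of all counts that fell on the 26 ATG genes, in percent, in each group (untr. is untreated). Bars are means with SD over 3 libraries and points are libraries; the treated deletion libraries lie between 0.177% and 0.187%, above the 0.104% to 0.125% of the treated wild type libraries.

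Gene levels are given as CPM, counts set to a common library size with TMM scaling factors, and changes as log2 fold changes with their standard error (SE). All adjusted p-values come from the quasi-likelihood test of edgeR with Benjamini-Hochberg adjustment over the 6463 genes tested, and a gene passed under 0.05. Since nothing says how the replicate cultures were separated beyond the word biological, p-values measure the spread between these libraries. All 26 members and all 11 further ATG genes were tested. With MMS, 22 of the 26 members rose in the deletion strain, where 39.2% of all genes tested rose, and 2 fell, where 36.2% of all genes fell. In the wild type, 21 members rose and 1 fell, against 35.6% and 34.2% of all genes. In either direction 24 and 22 members passed, where 75.4% and 69.9% of all genes did. Treated and untreated libraries did not overlap for 24 members in the deletion strain, 22 of them higher, against 81.4% and 42.2% of all genes. In the wild type 21 did not overlap, 20 of them higher, against 71.4% and 36.1%. The members' median log2 fold change with MMS was 1.36 in the deletion strain and 1.02 in the wild type, beside medians over all genes of 0.06 and 0.02. At least 2-fold higher were 19 members in the deletion strain, against 19% of all genes, and 13 in the wild type, against 14.3%. Scaling by library size alone, in place of TMM, moved the medians over all genes to 0.61 for MMS in the deletion strain and 0.33 in the wild type. It moved them to 0.37 between treated strains, 0.11 between untreated strains and 0.23 for the difference of MMS effects. Changes are therefore relative to the bulk of genes.

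Of the 26 members, 20 rose with MMS in the deletion strain and in the wild type, where 29% of all genes rose in both, and ATG27 fell in both, where 27.6% of all genes did. ATG11 and ATG12 passed as higher in the deletion strain alone and ATG5 in the wild type alone. ATG10 passed as lower in the deletion strain alone, and ATG16 passed in neither. Across the 26 genes the effects in the 2 strains had a Pearson correlation of 0.78 and a Spearman correlation of 0.71, a description over genes that share the same libraries and scaling. The group mean was highest in the treated deletion strain for 17 of the 26 members, against 37.5% of all genes. The order treated deletion, treated wild type, untreated deletion, untreated wild type held for 14 members, or 53.8%, against 20.2% of all genes.

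**Figure D2:**
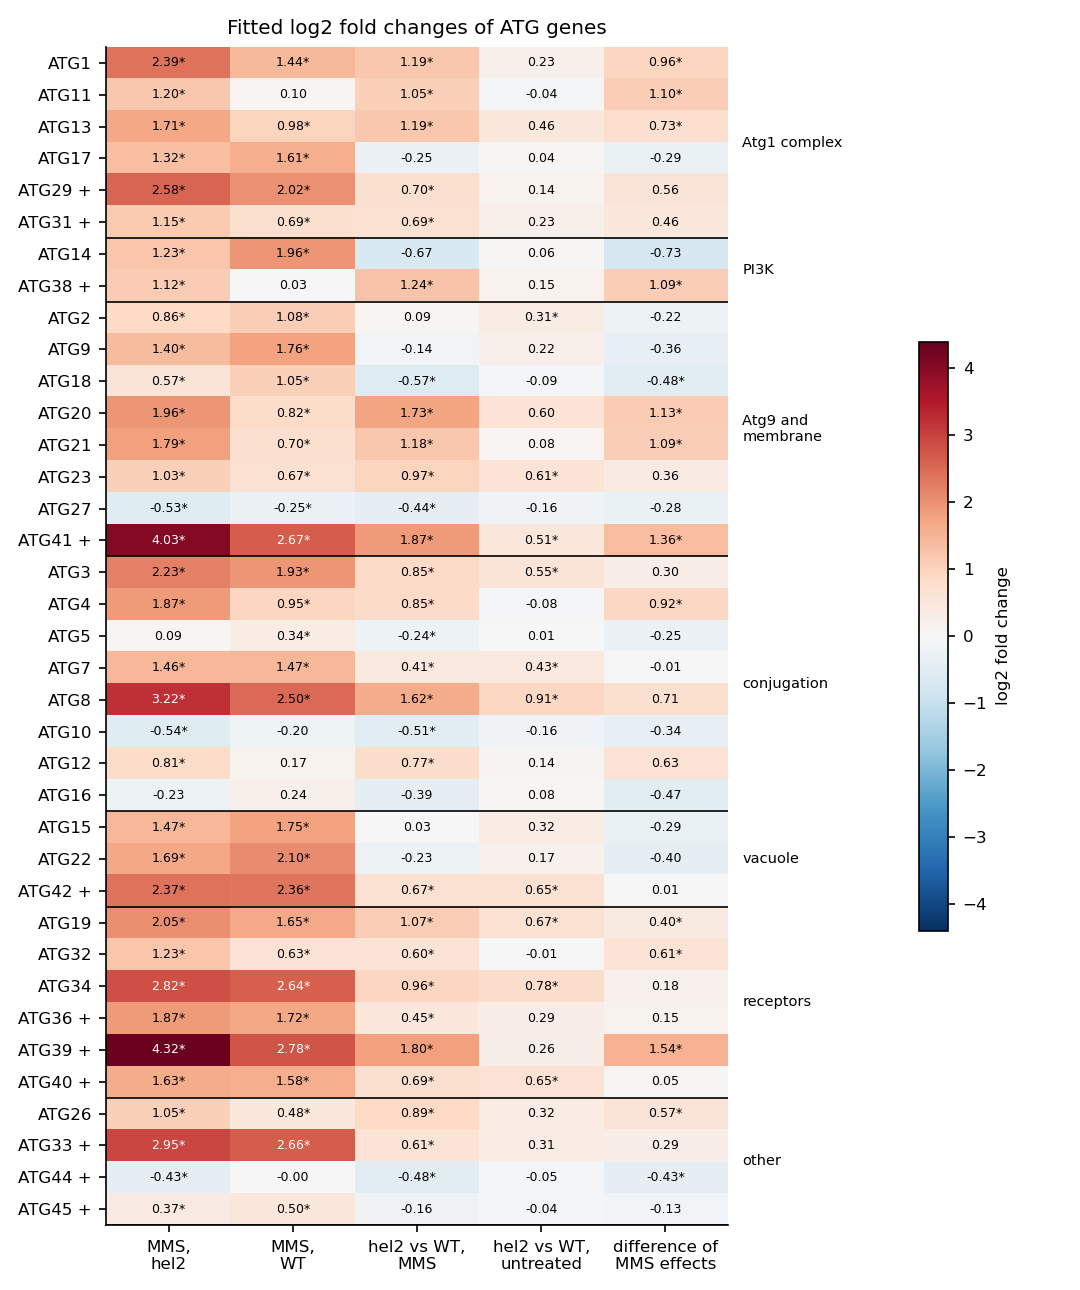
Fitted log2 fold changes of the 26 ATG genes and of the 11 that only RefSeq names (marked +), ordered by role, in the 5 comparisons; an asterisk marks an adjusted p under 0.05. The MMS columns are positive for nearly all rows and the column for untreated strains is pale; ATG10, ATG16, ATG27 and ATG44 are negative for MMS in the deletion strain, and with scaling by library size alone none of these values is below 0.

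The Atg1 kinase complex is the switch of autophagy. ATG1 (YGL180W), the kinase itself, had 58.4, 63.0 and 63.2 CPM in treated deletion cells and 11.3, 11.2 and 12.7 CPM in untreated deletion cells. Wild type libraries gave 24.4, 25.6 and 31.1 CPM with MMS and 11.1, 9.27 and 9.62 CPM without it. Treated and untreated libraries did not overlap in either strain, and the treated deletion libraries lay above all treated wild type libraries. Its log2 fold change with MMS was 2.39 (SE 0.11, adjusted p = 3.87e-10) in the deletion strain and 1.44 (SE 0.11, adjusted p = 8.34e-08) in the wild type. The 2 effects differed by 0.96 (SE 0.15, adjusted p = 0.000398), and with MMS the deletion strain was higher by 1.19 (SE 0.11, adjusted p = 1.01e-06).

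ATG13, the regulatory subunit that binds Atg1, had 72.9, 79.4 and 85.1 CPM in treated and 24.3, 25.7 and 22.7 CPM in untreated deletion cells. Treated wild type libraries had 24.7, 37.1 and 41.9 CPM, of which the lowest is replicate 1, and untreated ones 17.1, 18.3 and 17.3 CPM. The gene rose by 1.71 (SE 0.15, adjusted p = 2.43e-07) in the deletion strain and by 0.98 (SE 0.15, adjusted p = 6.55e-05) in the wild type. With MMS the deletion strain was higher by 1.19 (SE 0.15, adjusted p = 1.71e-05). The difference of the MMS effects was 0.73 (SE 0.21, adjusted p = 0.0148), and 0.55 (adjusted p = 0.0014) without replicate 1 of the treated wild type.

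The scaffolds of the complex split. ATG11, the scaffold of selective autophagy, had 47.1, 47.1 and 50.8 CPM in treated and 20.0, 21.6 and 21.6 CPM in untreated deletion cells. Its wild type values were 21.2, 22.8 and 25.8 CPM with MMS and 22.7, 22.7 and 19.7 CPM without it, and these overlapped. ATG11 therefore passed in the deletion strain, at 1.20 (SE 0.09, adjusted p = 7.16e-08), and had 0.10 (SE 0.09, adjusted p = 0.343) in the wild type. The difference itself passed at 1.10 (SE 0.13, adjusted p = 4.71e-05). In the wild type the gene passed as higher with scaling by library size alone, at 0.43 (adjusted p = 0.0149). With MMS the deletion strain was higher by 1.05 (SE 0.09, adjusted p = 9.05e-07).

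ATG17, the scaffold of bulk autophagy, had 5.02, 5.27 and 4.85 CPM in treated and 2.33, 1.91 and 1.82 CPM in untreated deletion cells. Treated wild type libraries had 3.08, 7.68 and 7.14 CPM and untreated ones 1.82, 2.52 and 1.59 CPM. It rose in both strains, by 1.32 (SE 0.28) and 1.61 (SE 0.29), and treated deletion and wild type libraries overlapped, at -0.25 (SE 0.27, adjusted p = 0.44). Without replicate 1 of the treated wild type, the low one, that value was -0.56 and passed (adjusted p = 0.014). ATG29 and ATG31, which form a subcomplex with Atg17 and are among the 11 genes that only RefSeq names, rose in both strains. Their changes were 2.58 and 1.15 in the deletion strain and 2.02 and 0.69 in the wild type. With MMS they were higher in the deletion strain by 0.70 and 0.69, though ATG29 overlaps the gene SET6 and its counts may hold reads of that gene.

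Phosphatidylinositol 3-kinase complex I, which marks the growing membrane, has 1 member under an ATG name in the table, ATG14, its autophagy-specific subunit. ATG14 had 17.1, 18.3 and 17.7 CPM in treated and 8.01, 7.07 and 7.60 CPM in untreated deletion cells. The treated wild type libraries had 12.7, 58.5 and 13.0 CPM and the untreated ones 7.68, 6.67 and 7.38 CPM, so that replicate 2 of the treated wild type was 4.51 times the next library. With all libraries the changes with MMS were 1.23 (SE 0.51, adjusted p = 0.0497) in the deletion strain and 1.96 (SE 0.52, adjusted p = 0.00688) in the wild type, and the call in the deletion strain was lost in 12 of 18 alternative settings. Without that library they were 1.23 (SE 0.10, adjusted p = 2.02e-07) and 0.83 (SE 0.11, adjusted p = 2.86e-05). The comparison of the treated strains turned with it: -0.67 (SE 0.49, adjusted p = 0.267) with all libraries and 0.46 (SE 0.11, adjusted p = 0.00352) without it. ATG38, which links the subunits of this complex and is named only by RefSeq, had 7.55, 5.75 and 6.98 CPM in treated and 3.50, 2.63 and 3.20 CPM in untreated deletion cells. Levels in wild type cells were 1.91, 2.87 and 3.71 CPM with MMS and 2.59, 2.63 and 3.18 CPM without it. It rose in the deletion strain by 1.12 (SE 0.21, adjusted p = 0.000339), had 0.03 (SE 0.22, adjusted p = 0.916) in the wild type, and the difference was 1.09 (SE 0.30, adjusted p = 0.0128).

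Among the genes of membrane supply, 6 of 7 members rose in each strain, against 39.2% of all genes in the deletion strain and 35.6% in the wild type, and ATG27 fell, against 36.2% and 34.2%. ATG9, the transmembrane protein of the founding vesicles, had 41.2, 40.6 and 42.2 CPM in treated and 16.8, 15.0 and 15.1 CPM in untreated deletion cells. The treated wild type libraries had 25.9, 29.9 and 80.2 CPM and the untreated ones 14.0, 13.6 and 12.7 CPM, and replicate 3 of the treated wild type was 2.68 times the next library. The change with MMS was 1.40 (SE 0.34, adjusted p = 0.00338) in the deletion strain and 1.76 (SE 0.35, adjusted p = 0.000957) in the wild type. Without that library the wild type value was 1.06 (SE 0.10, adjusted p = 1.74e-06). Treated deletion over treated wild type was -0.14 (SE 0.33, adjusted p = 0.742) with all libraries, 0.17 with scaling by library size alone, and 0.57 (SE 0.10, adjusted p = 0.000482) without it. The share of all genes more than 2 times as high in 1 library as in both its replicates was 0.588% in replicate 2 and 0.433% in replicate 3 of the treated wild type, so the ATG9 and ATG14 values sit among few such genes. What sets these 2 values was not tested.

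ATG2, the lipid transfer protein that bridges the membranes, rose by 0.86 (SE 0.07) in the deletion strain and by 1.08 (SE 0.07) in the wild type. The difference of -0.22 (adjusted p = 0.0802) missed the threshold, passed at -0.24 (adjusted p = 0.0338) without replicate 1 of the treated wild type and at -0.26 with median-ratio (RLE) scaling and by DESeq2 (adjusted p = 0.0378 and 0.0156), and was 0.020 with scaling by library size alone. Between treated strains ATG2 had 0.09 (adjusted p = 0.253), and 0.43 (adjusted p = 0.00487) with that scaling. ATG18, its partner that binds phosphatidylinositol 3-phosphate, had 88.1, 93.2 and 90.1 CPM in treated and 54.2, 63.0 and 65.1 CPM in untreated deletion cells. Wild type cells had 156, 115 and 132 CPM with MMS and 66.6, 64.9 and 63.1 CPM without it. The treated wild type libraries were thus the highest, with no overlap with the treated deletion libraries. ATG18 rose by 0.57 (SE 0.10, adjusted p = 0.00019) in the deletion strain and by 1.05 (SE 0.10, adjusted p = 9.35e-07) in the wild type. It was the member whose MMS effect was smaller in the deletion strain by the test of the difference, at -0.48 (SE 0.14, adjusted p = 0.0186). That call was lost without replicate 3 of the untreated deletion strain (adjusted p = 0.0516) and with scaling by library size alone, at -0.21 (adjusted p = 0.101).

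ATG21, a relative of Atg18 that recruits the conjugation machinery, rose in both strains and more in the deletion strain. It had 66.6, 66.2 and 68.9 CPM in treated and 21.5, 17.4 and 19.2 CPM in untreated deletion cells, and in the wild type 27.2, 29.4 and 32.4 CPM with MMS and 17.1, 18.8 and 18.9 CPM without it. All treated deletion libraries lay above all treated wild type libraries. ATG21 rose by 1.79 (SE 0.09, adjusted p = 1.26e-09) in the deletion strain and by 0.70 (SE 0.09, adjusted p = 1.81e-05) in the wild type, and the difference was 1.09 (SE 0.13, adjusted p = 4.6e-05).

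ATG20, a sorting nexin that works with Snx4, had 26.0, 24.8 and 26.1 CPM in treated and 7.84, 6.74 and 5.26 CPM in untreated deletion cells. The wild type libraries had 4.90, 7.99 and 10.2 CPM with MMS and 3.99, 5.38 and 3.75 CPM without it, and these overlapped. Its changes were 1.96 (SE 0.23, adjusted p = 4.64e-06) in the deletion strain and 0.82 (SE 0.23, adjusted p = 0.00703) in the wild type. Its difference between treated strains was 1.73 (SE 0.23, adjusted p = 2.99e-05), and its difference of MMS effects was 1.13 (SE 0.33, adjusted p = 0.0148). Without replicate 1 of the treated wild type, its lowest treated library, these were 1.49 (adjusted p = 4.99e-06) and 0.90 (adjusted p = 0.00688).

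ATG23 and ATG27 carry Atg9 to its vesicles, and they moved in opposite directions with TMM scaling. ATG23 had 9.83, 10.05 and 9.16 CPM in treated and 5.14, 4.76 and 4.29 CPM in untreated deletion cells. Treated wild type libraries had 4.10, 5.72 and 4.96 CPM and untreated ones 2.66, 3.33 and 3.34 CPM. It rose by 1.03 (SE 0.14) in the deletion strain and by 0.67 (SE 0.15) in the wild type, and was higher in the treated deletion strain by 0.97 (SE 0.14). ATG27 had 101, 98.8 and 102 CPM in treated and 131, 154 and 149.9 CPM in untreated deletion cells. Treated wild type libraries had 153, 129 and 128 CPM and untreated ones 169, 161 and 158 CPM. It fell in both strains, with log2 fold changes of -0.53 (SE 0.08, adjusted p = 6.91e-05) and -0.25 (SE 0.08, adjusted p = 0.0173), but with scaling by library size alone the values were 0.03 and 0.05 and neither passed. The wild type call was also lost without replicate 2 or replicate 3 of the treated or replicate 1 of the untreated wild type (adjusted p = 0.0593, 0.0706 and 0.0596). ATG41, a further factor of Atg9 traffic and named only by RefSeq, had 1257, 1293 and 1280.4 CPM in treated and 64.8, 90.7 and 79.5 CPM in untreated deletion cells. Wild type libraries gave 419.5, 301 and 331 CPM with MMS and 60.3, 52.4 and 52.3 CPM without it. Its changes were 4.03 (SE 0.15, adjusted p = 5.54e-11) and 2.67 (SE 0.14, adjusted p = 2.85e-09), and the difference was 1.36 (SE 0.19, adjusted p = 0.000154).

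**Figure D3:**
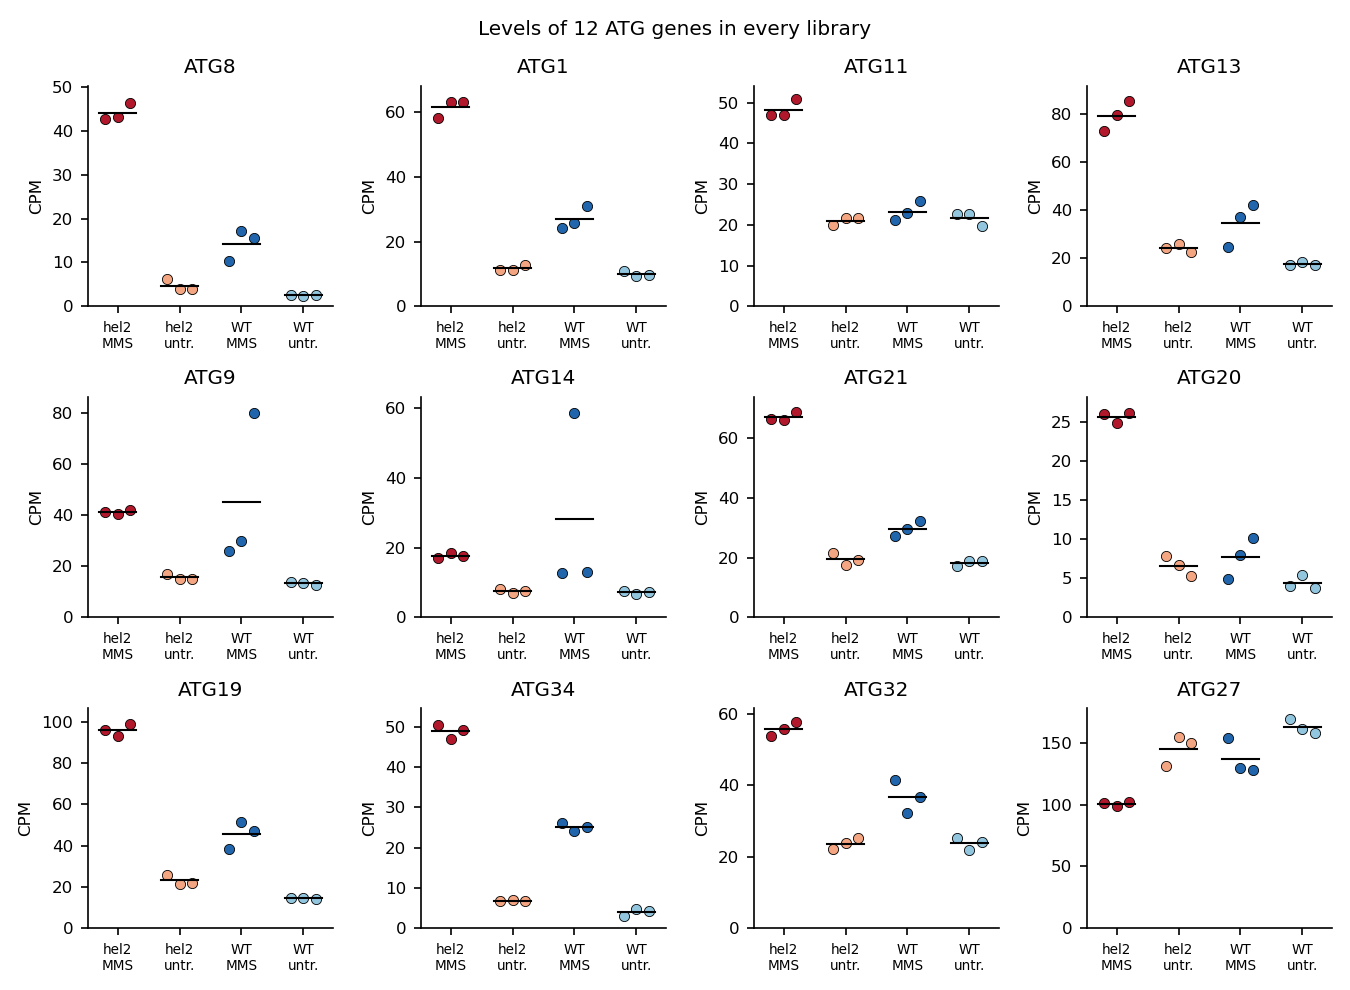
TMM-scaled CPM of 12 ATG genes in every library (untr. is untreated; points are libraries, lines are means of 3). ATG8, ATG1, ATG11, ATG13, ATG21 and ATG20 are highest in all 3 treated deletion libraries, while ATG9 and ATG14 each have 1 treated wild type library above all others, at 80.2 and 58.5 CPM. ATG27 is lowest in the treated deletion libraries on this scale, and its MMS change is near 0 with scaling by library size alone.

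The conjugation genes held both the member with the largest rise in the deletion strain and members that passed in few comparisons or none. ATG8 (YBL078C), the ubiquitin-like protein that is attached to lipid and stays with the autophagosome, had 42.7, 43.2 and 46.4 CPM in treated and 6.22, 4.06 and 3.94 CPM in untreated deletion cells. Wild type libraries had 10.3, 17.1 and 15.5 CPM with MMS and 2.51, 2.46 and 2.61 CPM without it. The 4 groups did not overlap. ATG8 rose by 3.22 (SE 0.20, adjusted p = 8.19e-09) in the deletion strain and by 2.50 (SE 0.21, adjusted p = 1.79e-07) in the wild type. Treated deletion cells were higher than treated wild type cells by 1.62 (SE 0.19, adjusted p = 9.65e-06). The difference of MMS effects, 0.71 (SE 0.28, adjusted p = 0.0576), missed the threshold. It passed without replicate 1 of the untreated deletion strain, at 0.96 (adjusted p = 0.00812), without replicate 2 of the treated wild type, at 0.86 (adjusted p = 0.0266), and by DESeq2, at 0.68 (adjusted p = 0.0357).

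The enzymes that charge Atg8 rose with it. ATG3, its conjugating enzyme, had 45.7, 45.3 and 47.4 CPM in treated and 10.9, 9.45 and 9.13 CPM in untreated deletion cells, and in the wild type 22.5, 26.2 and 28.1 CPM with MMS and 5.89, 7.69 and 6.59 CPM without it. Its groups did not overlap, and the changes were 2.23 (SE 0.12, adjusted p = 1.71e-09) in the deletion strain and 1.93 (SE 0.12, adjusted p = 1.31e-08) in the wild type. ATG7, the activating enzyme of both ubiquitin-like proteins, rose by 1.46 (SE 0.12) and 1.47 (SE 0.12), and the difference of -0.01 had an SE of 0.17. ATG4, the protease that processes and releases Atg8, had 39.3, 36.0 and 41.6 CPM in treated and 11.1, 11.1 and 9.83 CPM in untreated deletion cells. Its wild type values were 20.4, 20.8 and 23.8 CPM with MMS and 9.80, 14.3 and 9.69 CPM without it. It rose by 1.87 (SE 0.14) and 0.95 (SE 0.14), and the difference of 0.92 (SE 0.20, adjusted p = 0.00305) passed.

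ATG10, the conjugating enzyme of Atg12, had 3.31, 3.47 and 3.00 CPM in treated and 4.60, 4.19 and 5.43 CPM in untreated deletion cells. Levels in wild type cells were 4.22, 5.25 and 4.43 CPM with MMS and 4.75, 5.47 and 5.73 CPM without it, and these overlapped. Its change was -0.54 (SE 0.14, adjusted p = 0.00419) in the deletion strain, but 0.02 (adjusted p = 0.927) with scaling by library size alone, and -0.20 (SE 0.14, adjusted p = 0.242) in the wild type. ATG5, the partner to which Atg12 is joined, had 34.1, 35.0 and 36.3 CPM in treated and 30.5, 33.5 and 34.9 CPM in untreated deletion cells. Treated wild type libraries had 44.5, 39.0 and 40.7 CPM and untreated ones 33.6, 32.8 and 31.7 CPM. It rose in the wild type by 0.34 (SE 0.08, adjusted p = 0.0014) and had 0.09 (SE 0.08, adjusted p = 0.282) in the deletion strain, where it passed with scaling by library size alone, at 0.65. ATG16, which joins the Atg12 conjugate into a larger complex, lay between 0.343 and 0.708 CPM in all 12 libraries and passed in none of the 5 comparisons.

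ATG12 itself had 4.03, 3.61 and 4.01 CPM in treated and 3.41, 1.63 and 1.60 CPM in untreated deletion cells, where replicate 1 was 2.09 times the next library. The wild type libraries had 1.20, 2.87 and 2.67 CPM with MMS and 2.04, 1.87 and 2.14 CPM without it. Its change in the deletion strain was 0.81 (SE 0.31, adjusted p = 0.0327), and 1.27 (adjusted p = 0.00182) without that replicate. The call was lost in 5 of 18 alternative settings, among them leaving out replicate 2 or replicate 3 of the untreated deletion strain (0.63 and 0.62, adjusted p = 0.124 and 0.126). In the wild type the change was 0.17 (SE 0.33, adjusted p = 0.659). With MMS the deletion strain was higher by 0.77 (SE 0.31, adjusted p = 0.0475), a call lost in 11 of 18 settings and at 0.48 (adjusted p = 0.132) without replicate 1 of the treated wild type.

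Of the genes that act in the vacuole, ATG15, the lipase that opens autophagic bodies, and ATG22, an amino acid exporter, rose in both strains. ATG15 had 115, 128 and 118 CPM in treated and 37.8, 48.1 and 44.6 CPM in untreated deletion cells, and 148, 98.5 and 107 CPM in treated and 37.3, 33.1 and 34.5 CPM in untreated wild type cells. ATG22 had 141, 140.1 and 131 CPM in treated and 40.8, 45.5 and 41.6 CPM in untreated deletion cells, and 217, 129 and 138 CPM in treated and 42.4, 32.5 and 38.3 CPM in untreated wild type cells. For both, replicate 1 of the treated wild type was the highest treated library, and treated strains overlapped. Treated deletion over treated wild type was 0.03 (adjusted p = 0.874) for ATG15 with TMM scaling, and 0.40 (adjusted p = 0.00238) with scaling by library size alone. ATG22 rose by 1.69 (SE 0.17, adjusted p = 7.02e-07) in the deletion strain and by 2.10 (SE 0.17, adjusted p = 1.35e-07) in the wild type, and the difference was -0.40 (SE 0.23, adjusted p = 0.18). ATG42, a vacuolar carboxypeptidase named only by RefSeq, rose by 2.37 (SE 0.16) and 2.36 (SE 0.16), and the difference passed at 0.28 (adjusted p = 0.0409) without replicate 1 of the treated wild type alone among the alternatives.

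The list of selective receptors used here held 6 genes, 3 of the 26 members and 3 named only by RefSeq. All 6 rose with MMS in both strains, with medians of 1.96 in the deletion strain and 1.68 in the wild type, where 39.2% and 35.6% of all genes rose. They were also higher in the treated deletion strain than in the treated wild type, with a median of 0.83, where 32% of all genes were. ATG45, known as a receptor for glycogen and named only by RefSeq, is outside that list. It rose by 0.37 (SE 0.11) and 0.50 (SE 0.11), and between treated strains it had -0.16 (adjusted p = 0.195), with -0.22 (adjusted p = 0.0464) by DESeq2 and 0.18 (adjusted p = 0.299) with scaling by library size alone. ATG19, the receptor of the Cvt route, had 96.2, 92.9 and 99.0 CPM in treated and 26.0, 21.6 and 22.0 CPM in untreated deletion cells. Wild type cells had 38.7, 51.6 and 47.1 CPM with MMS and 14.5, 14.9 and 14.4 CPM without it, and no groups overlapped. It rose by 2.05 (SE 0.11, adjusted p = 1e-09) in the deletion strain and by 1.65 (SE 0.11, adjusted p = 1.52e-08) in the wild type. The difference of 0.40 (SE 0.15, adjusted p = 0.0449) was lost in 11 of 17 alternative settings, where adjusted p reached 0.104.

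ATG34, the paralog and neighbour of ATG19 that serves alpha-mannosidase under starvation, had 50.5, 46.9 and 49.1 CPM in treated and 6.67, 7.15 and 6.88 CPM in untreated deletion cells. The wild type had 26.0, 24.2 and 25.1 CPM with MMS and 3.13, 4.77 and 4.22 CPM without it. These groups did not overlap. ATG34 rose by 2.82 (SE 0.13, adjusted p = 2.73e-10) in the deletion strain and by 2.64 (SE 0.13, adjusted p = 1.39e-09) in the wild type, with a difference of 0.18 (SE 0.17, adjusted p = 0.422). How reads shared by these paralogs were counted is not given in the sources used here.

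ATG32, the mitochondrial receptor, had 53.7, 55.8 and 57.9 CPM in treated and 22.2, 23.8 and 25.2 CPM in untreated deletion cells. Wild type libraries had 41.6, 32.3 and 36.7 CPM with MMS and 25.2, 22.0 and 24.3 CPM without it. Untreated strains overlapped fully. Its changes were 1.23 (SE 0.10, adjusted p = 7.69e-08) and 0.63 (SE 0.10, adjusted p = 6.73e-05), and the difference was 0.61 (SE 0.14, adjusted p = 0.00369).

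ATG39, the receptor of the nuclear envelope, is listed in the table under its systematic name. It had 37.3, 35.6 and 41.3 CPM in treated and 1.94, 1.81 and 1.95 CPM in untreated deletion cells, and 10.1, 9.35 and 13.3 CPM in treated and 1.63, 1.78 and 1.36 CPM in untreated wild type cells. Its change of 4.32 (SE 0.16, adjusted p = 4.67e-11) in the deletion strain was the largest of all 37 ATG genes there. Its change was 2.78 (SE 0.16, adjusted p = 4.31e-09) in the wild type, and the difference was 1.54 (SE 0.21, adjusted p = 0.000136). ATG40, the receptor of the endoplasmic reticulum, had 55.6, 52.0 and 55.3 CPM in treated and 16.0, 18.5 and 18.1 CPM in untreated deletion cells, and 40.7, 28.2 and 31.8 CPM in treated and 10.9, 11.3 and 11.4 CPM in untreated wild type cells. It rose by 1.63 (SE 0.12, adjusted p = 3.68e-08) and 1.58 (SE 0.12, adjusted p = 8.33e-08), with a difference of 0.05 (SE 0.17). ATG36, the peroxisomal receptor, had 70.9, 67.0 and 66.2 CPM in treated and 17.2, 18.4 and 20.3 CPM in untreated deletion cells, and 56.1, 49.1 and 44.6 CPM in treated and 15.4, 15.3 and 14.8 CPM in untreated wild type cells. It rose by 1.87 (SE 0.09, adjusted p = 7.24e-10) and 1.72 (SE 0.09, adjusted p = 3.41e-09).

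Among the remaining genes, ATG26, a sterol glucosyltransferase known for peroxisome degradation in the yeast Komagataella, had 98.8, 102 and 100.4 CPM in treated and 53.6, 45.0 and 46.5 CPM in untreated deletion cells. Wild type libraries gave 47.2, 56.7 and 58.5 CPM with MMS and 39.2, 36.6 and 40.7 CPM without it. It rose by 1.05 (SE 0.09) and 0.48 (SE 0.09), and the difference was 0.57 (SE 0.13, adjusted p = 0.00368). ATG33, a mitochondrial outer membrane protein, rose by 2.95 (SE 0.16) and 2.66 (SE 0.16). Its difference of 0.29 (adjusted p = 0.299) passed at 0.54 (adjusted p = 0.00247) without replicate 1 of the treated wild type and at 0.57 (adjusted p = 0.00553) with scaling by library size alone. ATG44, the mitochondrial fission factor, fell in the deletion strain by 0.43 (SE 0.11, adjusted p = 0.00222) with TMM scaling, and had 0.13 (adjusted p = 0.165) with scaling by library size alone. Its wild type value was near 0 (adjusted p = 0.988) with TMM and 0.30 (adjusted p = 0.00576) with library size alone. Over the 11 genes that only RefSeq names, 10 rose and 1 fell in the deletion strain, against 39.2% and 36.2% of all genes, and 9 rose in the wild type, against 35.6%. Their medians were 1.87 and 1.72.

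Core and late-numbered members were set side by side over all comparisons. With MMS in the deletion strain, 14 of 17 core and 8 of 9 late-numbered members rose, with medians of 1.32 and 1.69, where 39.2% of all genes rose. In the wild type 13 core and 8 late-numbered members rose, where 35.6% of all genes did, with medians of 1.08 and 0.70, so that the late-numbered median was above the core median in the deletion strain and below it in the wild type. With the 11 further genes added to the late-numbered class, its wild type median was 1.20, so the order in the wild type depends on which late-numbered genes are counted. The MMS effect was larger in the deletion strain for 7 of 17 core and 7 of 9 late-numbered members, beside 49.6% of all genes. The core count was 9 without replicate 2 of the treated wild type and 10 with scaling by library size alone. The share of all genes was not computed for those settings, so 49.6% is no measure for them. With scaling by library size alone the median difference over all genes was itself 0.23.

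With MMS, 15 of the 26 members were higher in the deletion strain than in the wild type, where 32% of all genes tested were, and 4 were lower, where 29.8% were. In either direction 19 passed, against 61.9% of all genes, and the libraries of the same number of members did not overlap, against 68.3%. At least 2-fold higher were 7 members, against 7.55% of all genes. This number was 4 without replicate 1 of the treated wild type and 13 with scaling by library size alone. The share of all genes at least 2-fold higher was not computed for those settings, so 7.55% is no measure for them. Genes called higher at any fold numbered 2011 and 3143 there, against 2070 with all libraries and TMM. The 4 lower ones were ATG5, ATG10, ATG18 and ATG27. With scaling by library size alone ATG5 was at 0.11, and ATG10 and ATG27 no longer passed (adjusted p = 0.397 and 0.171). The members' median was 0.69, beside 0.03 over all genes. Of the core members 8 were higher and 3 lower, with a median of 0.09. Of the late-numbered members 7 were higher and 1 lower, with a median of 0.96. Without ATG9 and ATG14, whose treated wild type levels rest on 1 library each, the core median was 0.41. Of the 11 further genes 9 were higher and 1, ATG44, was lower, with a median of 0.69. This comparison shares its treated libraries with those of MMS in each strain.

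**Figure D4:**
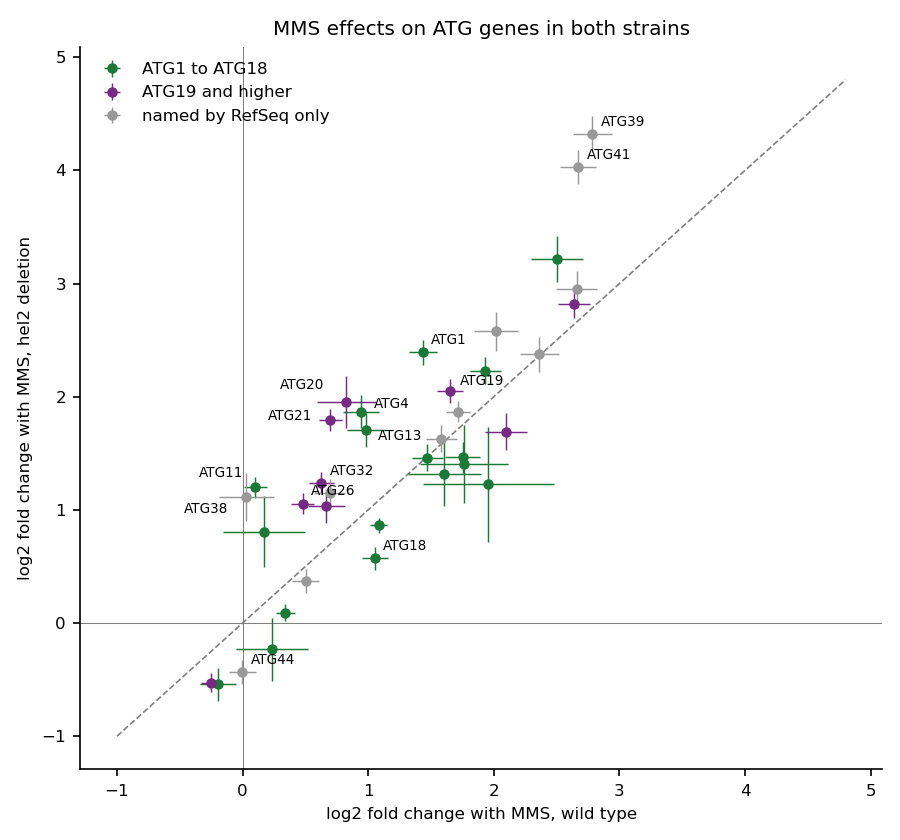
Log2 fold change with MMS in the deletion strain (vertical) against that in the wild type (horizontal) for 37 ATG genes, with bars of 1 SE and the line of equal effects; named genes passed the test of the difference. ATG39 and ATG41 lie farthest above the line, at 4.32 and 4.03 against 2.78 and 2.67, and ATG18 and ATG44 are the named genes below it; with scaling by library size alone neither passed below it.

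The difference of MMS effects was tested gene by gene. For 9 of the 26 members the effect was larger in the deletion strain, where this held for 18.6% of all genes, and for 1 it was smaller, where this held for 21.5%. Together these 10 stood against 40% of all genes, and for 3 of them the effect was at least 2-fold larger in the deletion strain, against 4.75%. The 9 were ATG1, ATG4, ATG11 and ATG13 of the core and ATG19, ATG20, ATG21, ATG26 and ATG32 of the late-numbered genes. Of these, ATG19 was lost in 11 of 17 alternative settings. The medians of this difference were -0.22 for the core and 0.40 for the late-numbered members, and the core value was 0.06 without replicate 2 of the treated wild type. Of the 11 further genes, ATG38, ATG39 and ATG41 passed as larger and ATG44 as smaller, the last of which was lost in 9 of 17 alternative settings.

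Without MMS the strains differed less. Of the 26 members 7 were higher in the deletion strain, where 5.25% of all genes were, and none was lower, where 3.33% were, against 8.57% of all genes in either direction. The 7 were ATG2, ATG3, ATG7, ATG8, ATG19, ATG23 and ATG34, and the members' median was 0.20, beside 0.01 over all genes. None reached 2-fold by its fitted change, against 0.634% of all genes. From the values given above, ATG8 was higher by 0.91 (SE 0.21, adjusted p = 0.0167), ATG34 by 0.78 (SE 0.13, adjusted p = 0.00279) and ATG19 by 0.67 (SE 0.11, adjusted p = 0.00212). ATG23 was higher by 0.61 (SE 0.15, adjusted p = 0.0248), with no overlap between untreated strains. Libraries of the 2 strains did not overlap for 13 of the 26 members, 12 of them higher in the deletion strain, against 31.9% of all genes in either direction and 16.6% higher.

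These calls rest on few libraries. Leaving out 1 library at a time gave between 2 and 11 members called, while the share of all genes called ran from 4.69% to 17.9%, and the higher number and share came without replicate 1 of the treated wild type, which is in neither group but enters the shared estimate of spread. ATG19 and ATG34 passed in all 18 alternative settings. ATG8 missed the threshold in 4, those without replicate 1 of the deletion strain (0.66, adjusted p = 0.0668) or without any 1 of the wild type libraries. ATG7 missed it in 13 and ATG23 in 6. Of the 11 further genes ATG40, ATG41 and ATG42 were higher, by 0.65, 0.51 and 0.65, and of these only ATG40 passed in all 18.

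Genes of autophagy without an ATG name were taken from fixed lists. Of 10 partners of the Atg proteins, 8 rose and 1 fell with MMS in the deletion strain, where 39.2% and 36.2% of all genes did. In wild type cells 7 rose and 2 fell, against 35.6% and 34.2% of all genes. With MMS, 7 were higher and 1 lower in the deletion strain than in the wild type, against 32% and 29.8%. None passed between untreated strains, where 8.57% of all genes did. CUE5, a ubiquitin-binding receptor for aggregates, had 91.1, 91.7 and 92.6 CPM in treated and 27.7, 24.3 and 21.0 CPM in untreated deletion cells, and 26.7, 41.0 and 47.7 CPM in treated and 18.1, 24.7 and 18.8 CPM in untreated wild type cells. It rose by 1.91 (SE 0.18, adjusted p = 5.96e-07) and 0.91 (SE 0.18, adjusted p = 0.000626), and the difference was 1.01 (SE 0.26, adjusted p = 0.00761). SNX4, the sorting nexin partner of ATG20, rose by 1.90 (SE 0.21) and 0.84 (SE 0.21), with a difference of 1.07 (SE 0.30, adjusted p = 0.0121), beside 1.13 for ATG20. In treated wild type libraries SNX4 had 13.4, 22.2 and 24.3 CPM, and replicate 1 was the lowest for both SNX4 and CUE5. Without that replicate the ATG20 difference was 0.90, while alternative settings were not examined for CUE5 and SNX4.

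The 4 cargo enzymes of the Cvt route rose in both strains, where 29% of all genes did. LAP4, which encodes aminopeptidase I, had 715, 788 and 797 CPM in treated and 53.9, 55.1 and 57.9 CPM in untreated deletion cells, and 404, 379 and 418 CPM in treated and 32.5, 33.6 and 28.9 CPM in untreated wild type cells. Its changes were 3.78 (SE 0.09, adjusted p = 2.09e-12) and 3.66 (SE 0.09, adjusted p = 6.37e-12). AMS1, alpha-mannosidase, rose by 2.57 (SE 0.09) and 2.09 (SE 0.09), with a difference of 0.48 (SE 0.12, adjusted p = 0.00771).

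Of 23 regulators of autophagy or of ATG transcription, 12 rose and 8 fell with MMS in the deletion strain, against 39.2% and 36.2% of all genes. In wild type cells 8 rose and 4 fell, against 35.6% and 34.2%. Their medians were 0.25 and 0.07, beside 0.06 and 0.02 over all genes, and several of these counts lie near the share of all genes. Regulators are named below by the size of their change. None of those named is among the 8 that fell in the deletion strain, where the lowest change was -0.90. PHO23, a subunit of the Rpd3 histone deacetylase complex that represses ATG9 transcription, rose by 1.76 (SE 0.14) in the deletion strain and 0.67 (SE 0.14) in the wild type. MSN4, a stress transcription factor, rose by 1.11 (SE 0.09) in the deletion strain and 1.45 (SE 0.09) in the wild type. GLN3, an activator of genes for poor nitrogen sources, had 69.2, 71.5 and 70.5 CPM in treated and 35.2, 30.3 and 31.7 CPM in untreated deletion cells, and 21.5, 26.1 and 28.4 CPM in treated and 30.8, 27.2 and 31.1 CPM in untreated wild type cells. It rose in the deletion strain by 1.12 (SE 0.10, adjusted p = 3.07e-07), had -0.23 (SE 0.10, adjusted p = 0.0603) in the wild type, and the difference was 1.35 (SE 0.14, adjusted p = 1.99e-05). Without MMS 4 regulators were higher in the deletion strain, where 5.25% of all genes were, among them GAT1, an activator of genes for poor nitrogen sources, at 0.55 (SE 0.09, adjusted p = 0.00227).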

How the data were processed

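Poly(A) RNA of 12 samples was sequenced. RNA came from hot phenol extraction and was enriched on oligo-dT beads, per the labels' protocols. The authors deposited 1 table of whole-number read counts with 7230 lines for 7109 identifiers. Repeated lines of 97 identifiers held equal counts and entered once. Tools named are STAR 2.5.1a, Subread, featureCounts 1.4.6-p5 and Salmon, per the submitters' processing notes. Not given in the sources used here were build, annotation release, strand setting and the handling of multiply aligned reads. Counts of overlapping genes and close paralogs are therefore uncertain. RefSeq symbols of assembly R64 were found for 6042 identifiers, and its gene order gave the neighbours. Promoter and protein sequences were not analysed here.

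TMM-scaled counts of the 6463 genes kept by filterByExpr were tested with edgeR 4.0.16 (quasi-likelihood, robust) in R 4.3.3. All 12 libraries entered 1 fit with 4 group means, from which 5 contrasts were taken: MMS in each strain, deletion against wild type with and without MMS, and the interaction. SE was obtained as the absolute log2 fold change over the root of F. Library totals ran from 36472686 to 53638964, and replicates differed by at least 64.07 in chi-square per degree of freedom, so none repeats another within counting noise. The test was checked on simulated counts in which few genes changed and all genes had the same spread. That check does not bear on the choice of scaling or on single deviating libraries. Alternatives were median-ratio (RLE) scaling, scaling by library size alone, no filter, a replicate block, only the libraries compared, each library left out in turn, and DESeq2 1.42.0. Leaving ATG9 and ATG14 out of the core median, and adding the genes only RefSeq names to the late-numbered one, were chosen after seeing the data.

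Members, roles and lists were chosen with earlier results of these data known, so no list's direction is independent evidence. Values of every library were given for ATG8, ATG1, the 6 listed receptors, the members with the largest changes (6 in each MMS comparison, 4 in each other one) and members that fell with MMS. Further ATG genes were added where their difference between strains, 1 library or the scaling called for it. For each other list the 2 genes with the largest changes past the threshold were named, apart from 1 that is not reported here.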

Additional observations from a re-analysis of the deposited data

Results flagged for a closer look

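The change with MMS differed between the strains by the test of the difference itself (edgeR, adjusted p under 0.05) for the following genes, each value being the log2 fold change with MMS in the deletion strain minus that in the wild type. Among core members it was 0.96 for ATG1, 0.92 for ATG4, 1.10 for ATG11, 0.73 for ATG13 and -0.48 for ATG18. Among late-numbered members it was 0.40 for ATG19, 1.13 for ATG20, 1.09 for ATG21, 0.57 for ATG26 and 0.61 for ATG32. Of the ATG genes that only RefSeq names it was 1.09 for ATG38, 1.54 for ATG39, 1.36 for ATG41 and -0.43 for ATG44. In the other lists it was 1.01 for CUE5, 1.07 for SNX4, 0.48 for AMS1, 1.35 for GLN3 and 1.09 for PHO23. Among the ATG genes the call was lost in 11 of 17 alternative settings for ATG19, in 9 for ATG44 and in 2 for ATG18. The remaining ATG genes named here passed in all 17. Alternative settings were not examined for the genes of the other lists. With 3 libraries in each group no library was tested as an outlier. ATG9 in replicate 3 and ATG14 in replicate 2 of the treated wild type, at 80.2 and 58.5 CPM, were noticed by comparing libraries.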

How the results depend on the processing

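Over 18 alternative settings, between 22 and 24 of the 26 members were called with MMS in the deletion strain and 21 to 22 in the wild type. Between strains 17 to 20 were called with MMS and 2 to 11 without it, and 8 to 14 for the difference of MMS effects. Over the same settings the share of all genes called ran from 71.1% to 79.2%, 64.9% to 70.8%, 55.2% to 63.9%, 4.69% to 17.9% and 33.8% to 44.3%, in this order. For single ATG genes, 2023 recomputed values passed with the direction they had before, 42 newly passed, 100 no longer passed, and 8 that passed in 1 of the 2 fits or in both changed sign. A further 1120 passed in neither fit, and 64 of these changed sign. To look for pairing, each gene's log2 CPM was taken as a deviation from its group mean. These deviations, not the levels themselves, were correlated over genes between libraries of different groups. For same-numbered libraries they correlated between -0.38 and 0.24, 1 of 18 pairs was over 0.1, and 3 of 12 libraries lay closest to their own number. The correlations were 0.24, 0.09 and 0.07 between treated and untreated wild type libraries of replicates 1, 2 and 3. Between treated and untreated deletion libraries they were 0.03, -0.03 and -0.10, in the same order. These values cannot decide whether libraries of the same number are paired, since each group holds 3 libraries. With the replicate number as a block, 22, 22, 18, 6 and 9 members were called in these 5 comparisons, beside 74.3%, 68%, 59.4%, 6.22% and 36.8% of all genes, and the core medians were 1.31, 1.08, 0.092, 0.13 and -0.22.

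With scaling by library size alone the core medians were 1.87 for MMS in the deletion strain, 1.40 in the wild type, 0.43 between treated strains, 0.26 between untreated strains and 0.020, with the sign changed, for the difference. The late-numbered medians were 2.25, 1.02, 1.30 and 0.62 for MMS in each strain, between treated strains and for the difference. Under the same scaling, among values that passed in either fit, ATG10 (0.018), ATG27 (0.033) and ATG44 (0.13) changed sign for MMS in the deletion strain, ATG27 (0.054) and ATG44 (0.30) in the wild type, and ATG5 (0.11) between treated strains. It also raised the share of all called genes that were higher to 74.4%, 69.3%, 76.2%, 85.4% and 66.6%, against 52.0%, 51.0%, 51.8%, 61.2% and 46.4% with TMM, in the order used above. These shifts follow from the scaling itself.

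Between treated strains the core median was 0.033 with RLE, 0.032 with DESeq2 and 0.41 without ATG9 and ATG14. The late-numbered median there was 0.90 with RLE and with DESeq2 and 0.70 with the genes only RefSeq names, which gave 1.20 for MMS in the wild type. The core median of the difference was -0.011 without ATG9 and ATG14. Leaving out 1 library at a time gave core medians of 1.25 to 1.37 for MMS in hel2 deletion cells, 0.071 to 0.46 between treated strains, 0.065 to 0.24 between untreated strains and -0.24 to 0.062 for the difference. The highest of the last range, with the sign changed, came without replicate 2 of the treated wild type. Late-numbered medians between treated strains ran from 0.85 to 0.96. ATG9 ran from -0.41 to 0.57 between treated strains and changed sign without replicate 3 of the treated wild type, and ATG14 ran from -1.02 to 0.46 and changed sign without replicate 2. The cause of calls that changed by leaving out a library was not tested. The difference of MMS effects uses all 12 libraries, so a fit to only the libraries compared is the same fit. ATG16, ATG12, ATG10 and ATG17 have the fewest counts among the core.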
